A study of Mus musculus with 36 samples.

Results

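The Hox genes encode homeodomain transcription factors and lie in 4 clusters, HoxA to HoxD, in which genes of the same number are paralogs. Their order along a cluster follows the position along the body at which each is active in the embryo, with low numbers toward the head and high numbers toward the tail and the tips of the limbs. In the gut tube the middle members mark much of the length of the intestine, mostly in its mesenchyme, and the members of paralog group 13 mark the hindgut. A Hox profile is therefore a record of where in the body cells came from. The genes described were the protein-coding genes whose mouse GENCODE symbol is Hoxa, Hoxb, Hoxc or Hoxd followed by a number, matched by Ensembl identifier to the genes counted. They were 39 of 52636 genes. On the GRCm38 build, HoxA held 11 of them (chr6:52155590-52260880, minus strand), HoxB 10 (chr11:96194316-96368256, plus strand), HoxC 9 (chr15:102921103-103036852, plus strand) and HoxD 9 (chr2:74668310-74765142, plus strand). Each of the 39 had at least 1 read in the series.

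The study asked how mutant caspase-8 acts in mice without its partner cFLIP, the product of *Cflar*, and without other proteins of cell death. The D387A form (written *Casp8* 1xDA) lacks the cleavage site between its catalytic subunits. The C362A form (written *Casp8* C362A) has no protease activity. RNA was sequenced from 30 untreated intestines of E18.5 embryos and from 6 untreated cultures of mouse embryonic fibroblasts (MEFs), with 3 biological replicates in each of 12 groups. The 1xDA set had 6 groups of intestines, which were *Mlkl*-/-, *Casp8* 1xDA, *Casp8* 1xDA *Cflar*-/- *Mlkl*-/-, *Casp8* 1xDA *Cflar*-/- *Mlkl*-/- *Casp1*-/-, *Casp8* 1xDA *Cflar*-/- *Mlkl*-/- *Casp1*-/- *Ifnar1*-/- and *Casp8* 1xDA *Cflar*-/- *Mlkl*-/- *Casp1*-/- *Fadd*-/-. The C362A set had 4 groups of intestines, *Mlkl*-/-, *Casp8* C362A *Mlkl*-/-, *Casp8* C362A *Mlkl*-/- *Casp1*-/- and *Casp8* C362A *Cflar*-/- *Mlkl*-/-, and the MEFs were *Mlkl*-/- or *Casp8* 1xDA *Cflar*-/- *Mlkl*-/-, with all alleles homozygous. Every group but *Casp8* 1xDA lacked MLKL, the executioner of necroptosis, controls included, so no group was fully wild-type. The lines were on a C57BL/6N background. The *Cflar* and *Mlkl* deletions of the 1xDA line came from 1 mosaic founder of a genome-editing experiment, and the *Cflar* deletion of the C362A line from a separate edit. The intestines were snap-frozen, and neither the labels nor the methods say whether stomach, caecum or colon was included. The MEFs came from E14.5 embryos without head and internal organs and were grown for fewer than 5 passages, so they mix limb, trunk and tail cells. The titles of the second MEF group name *Mlkl* and FLIP alone, and its genotype label adds Casp8 D387A. The label was followed.

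Reads on genes ran from 17943524 to 27721024 per library in the 1xDA set, from 21757868 to 31052238 in the C362A set and from 20927014 to 32307629 in MEFs. Levels are given as RPKM, which scales reads to gene length and library size, from the deposited read counts and gene widths, with library sizes scaled by 1 TMM normalization over all 36 libraries. Values of 3 libraries are listed in the order of replicates 1 to 3. Changes are log2 fold changes with their standard error from edgeR's quasi-likelihood test, adjusted by Benjamini-Hochberg over all genes tested. A gene was called when its adjusted p was under 0.05 and its log2 fold change was above 1 or below -1, and it is said to have risen or fallen when the adjusted p alone was under 0.05. Members named for passing the adjusted p alone were picked out after their values were seen. In whole tissue, fewer cells of a type and less RNA per cell cannot be told apart. The methods give 1 library kit for the intestines and another for the MEFs of these genotypes, while the labels give a single other kit for all, so tissue, kit and sequencing run cannot be told apart. On the annotation 11 members overlapped another member and 14 overlapped an antisense gene, together 19 of the 39, and the strand rule of the counting was not stated. *Hoxa3* spans 3 of its neighbours, *Hoxc5* spans *Hoxc6*, *Hoxc8* and *Hoxc9* and part of *Hoxc10*, and *Hoxd3* spans *Hoxd4*.

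The genotype labels were read against the targeted genes first. *Casp1*, which encodes the caspase of pyroptosis, was at 28.2 to 82.6 RPKM in the 18 intestines with the gene and at 0 to 0.140 in the 12 without it. *Fadd*, the adaptor of caspase-8, was at 6.34 to 12.9 RPKM in the 27 intestines with the gene and at 0.202, 0.257 and 0.167 in the 3 without it. *Ifnar1*, a subunit of the type I interferon receptor, was at 19.3 to 25.4 RPKM with the gene and at 9.59, 8.41 and 8.70 in the 3 without it. These 3 labels therefore separated by transcript level with no overlap. *Cflar* separated in the C362A set, at 5.42, 4.90 and 5.36 RPKM in *Casp8* C362A *Cflar*-/- *Mlkl*-/- against 6.34 to 8.98 in the 9 intestines with the gene. In the 1xDA set *Casp8* 1xDA *Cflar*-/- *Mlkl*-/-, at 4.65, 4.26 and 4.84, lay below the 5.51 to 6.67 of the 6 intestines with the gene, whereas *Casp8* 1xDA *Cflar*-/- *Mlkl*-/- *Casp1*-/-, at 5.33, 5.97 and 5.99, and the groups that also lack *Ifnar1*, at 6.57, 6.41 and 6.69, or *Fadd*, at 5.53, 6.48 and 7.47, overlapped them. In MEFs it separated, at 12.1, 12.2 and 13.1 RPKM in *Mlkl*-/- and 7.87, 7.84 and 8.63 in *Casp8* 1xDA *Cflar*-/- *Mlkl*-/-. *Mlkl* was at 6.88, 6.76 and 5.39 RPKM in the *Casp8* 1xDA intestines, which carry the gene, and at 1.00 to 30.9 in the 27 intestines without it, so its reads did not separate the labels. *Casp8*, which the knock-in alleles leave transcribed, was at 22.8 to 49.6 RPKM in intestine and 13.9 to 18.1 in MEFs. Both genes split the *Casp8* 1xDA *Cflar*-/- *Mlkl*-/- *Casp1*-/- group. *Mlkl* was at 3.10, 3.69 and 22.8 RPKM there, beside 2.43, 2.37 and 2.65 in controls, 13.1, 11 and 13.3 in *Casp8* 1xDA *Cflar*-/- *Mlkl*-/-, 22.6, 27.6 and 27.1 with *Ifnar1* lost as well and 27.4, 29.9 and 30.9 with *Fadd* lost as well. *Casp8* was at 25.5, 24.3 and 35.2 RPKM, beside 25.7, 25.7 and 24.6 in controls and 42.0, 36.9 and 41.9 in *Casp8* 1xDA *Cflar*-/- *Mlkl*-/-. Replicates 1 and 2 thus lay near the controls in both genes, and replicate 3 lay apart from them, which was seen after the values were known. *Casp1* was at 0, 0.0893 and 0.126 RPKM in them, and whether all 3 carry the rest of their label was not tested.

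The tissue labels were read against marker lists. The 6 markers of epithelium summed to 1746, 1644 and 1539.9 RPKM in the *Mlkl*-/- intestines of the 1xDA set, 1603, 1635 and 1400.1 in those of the C362A set and 36.6, 37.2 and 43.9 in *Mlkl*-/- MEFs. The 8 enterocyte markers summed to 37743, 38043 and 33406 RPKM, 27487, 39656 and 47269 and 0.547, 0.325 and 1.09 in the same order, and *Alpi*, *Fabp1*, *Fabp2*, *Apoa4* and *Sis* had 0 reads in the control MEFs. *Nkx2-3*, a homeobox gene of gut mesenchyme, was at 44.0, 44.3 and 39.6 RPKM in the first intestines, 41.4, 34.0 and 31.3 in the second and 0, 0.0176 and 0 in MEFs. *Tbx5*, which marks forelimb and heart, was at 6.85, 7.59 and 6.59 RPKM in control MEFs, 0.0127, 0 and 0.0251 in the 1xDA controls and 0, 0 and 0 in the C362A controls, and *Tbx4*, which marks hindlimb, at 12.8, 8.53 and 1.07, 0, 0.0153 and 0 and 0, 0 and 0. The 8 stomach markers summed to 4.33, 5.08 and 249 RPKM in the *Mlkl*-/- intestines of the 1xDA set, with *Tff1* at 0.105, 0 and 144, *Pga5* at 3.15, 3.93 and 56.4 and *Gkn2* at 0, 0 and 29.9. Replicate 3 of these controls held stomach transcripts at levels far above those of the other 2.

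In control intestine the Hox profile was led by *Hoxa5* and *Hoxb5* of paralog group 5, whereas *Hoxc5* of that group had a mean of 2.02 RPKM. *Hoxa5*, known for its part in lung and stomach development, was at 16.6, 15.8 and 18.9 RPKM in the 1xDA set and 18.03, 15.5 and 12.7 in the C362A set, which made it the most abundant member, with a mean of 16.2 ± 2.18 (SD over 6 libraries). *Hoxb5*, known in the neural crest cells that colonise the gut, was at 17.9, 12.6 and 18.7 RPKM in the 1xDA set and 16.6, 13.3 and 12.5 in the C362A set, a mean of 15.3 ± 2.82. These 2 means were within 1 SD of each other, and no other member reached 10 RPKM. The second members of their clusters were *Hoxa4*, at 6.06, 6.33 and 6.84 RPKM in the 1xDA set and 6.73, 5.80 and 6.33 in the C362A set, and *Hoxb2*, a gene of the hindbrain and of anterior mesoderm, at 7.26, 8.44 and 8.77 RPKM in the 1xDA set and 8.88, 7.74 and 8.11 in the C362A set. Among members outside the first 2 of HoxA and HoxB, the means of *Hoxb7* (7.18 ± 1.28), *Hoxb6* (7.09 ± 0.364), *Hoxb3* (6.29 ± 0.957), *Hoxa3* (6.13 ± 1.17) and *Hoxc6* (6.05 ± 0.542) each lay within 1 SD of the next. HoxC was led by *Hoxc6*, at 5.35, 6.49 and 6.36 RPKM in the 1xDA set and 6.72, 5.72 and 5.67 in the C362A set, and *Hoxc4*, at 3.28, 3.32 and 3.98 RPKM in the 1xDA set and 4.25, 4.34 and 4.08 in the C362A set. HoxD was led by *Hoxd8*, at 4.31, 4.27 and 3.40 RPKM in the 1xDA set and 3.19, 3.20 and 3.43 in the C362A set and *Hoxd10* at 1.90, 2.90 and 1.97 RPKM in the 1xDA set and 2.29, 1.82 and 2.19 in the C362A set. The groups of the 2 sets overlapped for *Hoxa4*, *Hoxa5*, *Hoxb2*, *Hoxb5*, *Hoxc6*, *Hoxd8* and *Hoxd10*, and did not overlap for *Hoxc4*.

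By mean RPKM in control intestine, 26 of the 39 members were at 1 or more and 13 were below. Of those below, *Hoxc12* and *Hoxc13* had 0 reads in the 6 control intestines, and *Hoxb1* and *Hoxd1*, the group 1 genes of their clusters, were at 0 to 0.0249 (median 0) and 0.0269 to 0.112 (median 0.0496). The summed RPKM of the 39 was 135, 124 and 140.2 in the 1xDA controls and 135, 128 and 129.7 in the C362A controls. HoxB gave 45.0% ± 0.727 (SD over 6 libraries) of that sum, HoxA 33.7% ± 0.733, HoxC 12.3% ± 0.724 and HoxD 8.97% ± 0.852. The order of the clusters was the same in each of the 6 libraries. By position, the 15 members of groups 4 to 8 gave 64.9% ± 2.60, the 8 of groups 1 to 3 gave 18.9% ± 2.17 and the 16 of groups 9 to 13 gave 16.1% ± 1.98.

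**Figure D1:**
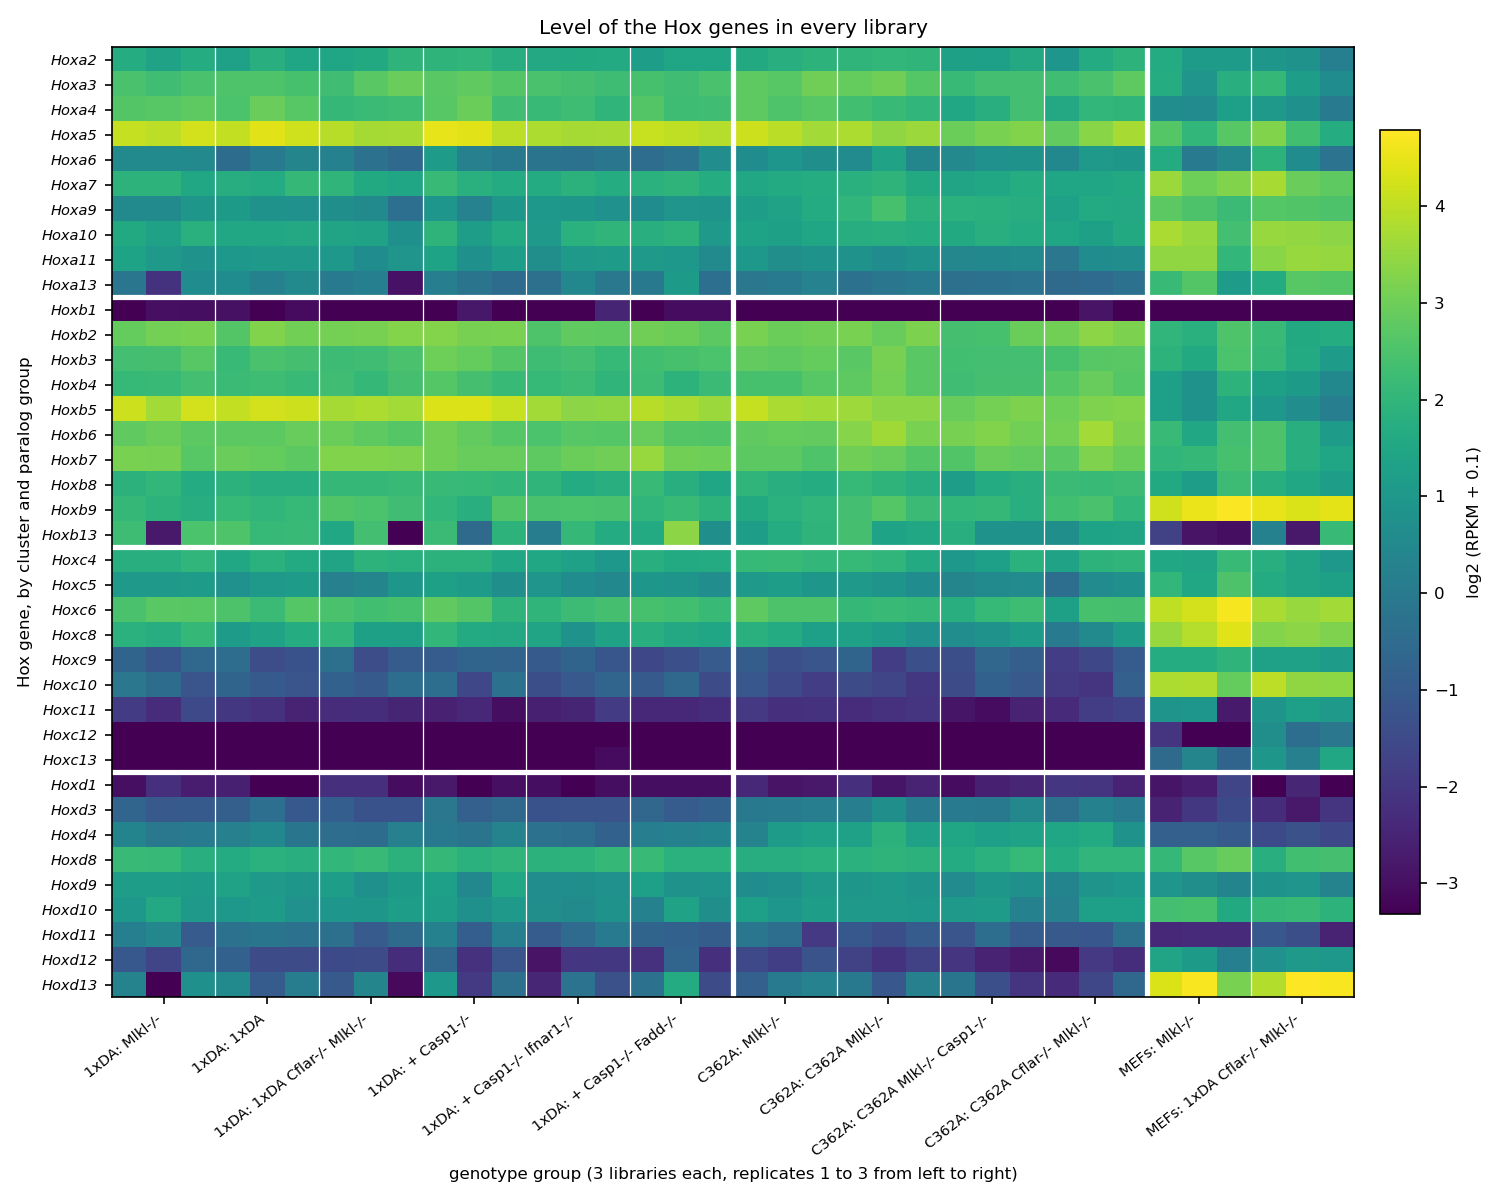
Level of Hox genes (one per line, by cluster and paralog group) in each of the 36 libraries (one per column, 3 per genotype group), on a colour scale of log2 (RPKM + 0.1). Groups 4 to 8 are brightest in intestine, led by *Hoxa5* and *Hoxb5*, and *Hoxc9*, *Hoxc10* and *Hoxd13* brighten in MEFs, where *Hoxd13* reached 27.6 RPKM.

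In the 1xDA set *Hoxb13*, *Hoxd13* and *Hoxa13*, the posterior ends of their clusters, differed widely between replicates of some genotypes. *Hoxb13*, which is known in the hindgut and tail, was at 4.75, 0.0472 and 5.53 RPKM in the *Mlkl*-/- intestines of the 1xDA set. It was at 5.75, 4.21 and 4.28 in *Casp8* 1xDA, 2.79, 5.11 and 0 in *Casp8* 1xDA *Cflar*-/- *Mlkl*-/- and 4.53, 0.606 and 3.69 in *Casp8* 1xDA *Cflar*-/- *Mlkl*-/- *Casp1*-/-. It was at 0.952, 4.15 and 3.11 with *Ifnar1* lost as well and at 3.02, 10.4 and 1.55 with *Fadd* lost as well. Replicate 2 of the controls and replicate 3 of *Casp8* 1xDA *Cflar*-/- *Mlkl*-/- were near 0, while replicate 2 without *Fadd* was the highest of the set, and the 6 genotypes overlapped. *Hoxd13*, a gene of digits and hindgut, followed the same libraries, at 1.13, 0 and 1.60 RPKM in the controls, 0.379, 1.20 and 0.0159 in *Casp8* 1xDA *Cflar*-/- *Mlkl*-/- and 0.707, 3.05 and 0.262 without *Fadd*. *Hoxa13*, which acts with *Hoxd13* in digits and hindgut, was at 0.810, 0.126 and 1.44 RPKM, 0.918, 1.02 and 0.0319 and 0.870, 2.06 and 0.685 in these groups. All 3 genes were lowest in the same replicate in 5 of the 6 groups of the 1xDA set and highest in the same replicate in 6 of 6, a pattern singled out after the values were seen.

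The fit of the 1xDA set gave the spread between replicates as a biological coefficient of variation. It was 1.01 for *Hoxb13*, 1.01 for *Hoxd13* and 0.605 for *Hoxa13*, against 0.132 common to all genes of that set, and 99.8%, 99.8% and 99.5% of the genes tested had a smaller one. In the C362A set the coefficient was 0.282 for *Hoxb13*, 0.508 for *Hoxd13* and 0.135 for *Hoxa13*, against 0.162 in common. Of the genes tested in that set, 91.5%, 99.5% and 36.8% had a smaller one. There *Hoxb13* was at 2.24, 3.17 and 3.76 RPKM in *Mlkl*-/-, 5.19, 2.52 and 2.84 in *Casp8* C362A *Mlkl*-/-, 3.38, 1.72 and 1.67 in *Casp8* C362A *Mlkl*-/- *Casp1*-/- and 1.53, 2.52 and 2.58 in *Casp8* C362A *Cflar*-/- *Mlkl*-/-. No C362A intestine was near 0 in *Hoxb13*. *Hoxd13* fell to 0.0939 RPKM in replicate 1 of *Casp8* C362A *Cflar*-/- *Mlkl*-/- and to 0.139 in replicate 3 of *Casp8* C362A *Mlkl*-/- *Casp1*-/-. The 3 genes shared both their lowest and their highest replicate in 2 of the 4 groups of this set.

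Neighbours of the group 13 genes moved with them in part. *Evx2*, the homeobox gene beside *Hoxd13*, was at 0.108, 0 and 0.0946 RPKM in the controls of the 1xDA set and 0.0204, 0.0317 and 0 in *Casp8* 1xDA *Cflar*-/- *Mlkl*-/-, so within them it had no read in the libraries where *Hoxd13* was near 0. The noncoding gene *9530018H14Rik* beside *Hoxa13* was at 0.282, 0.0838 and 0.598 RPKM and 0.207, 0.0713 and 0.0318 in the same groups, lowest in the same libraries. The 3 colon markers did not follow in the controls and were lowest in replicate 3 of the mutants. The list summed to 35.2, 34.1 and 34.4 RPKM in the controls, where *Slc26a3* was the most abundant, and to 14.8, 14.9 and 8.53 in the mutants. How much of the length of the gut each library held was not tested.

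**Figure D2:**
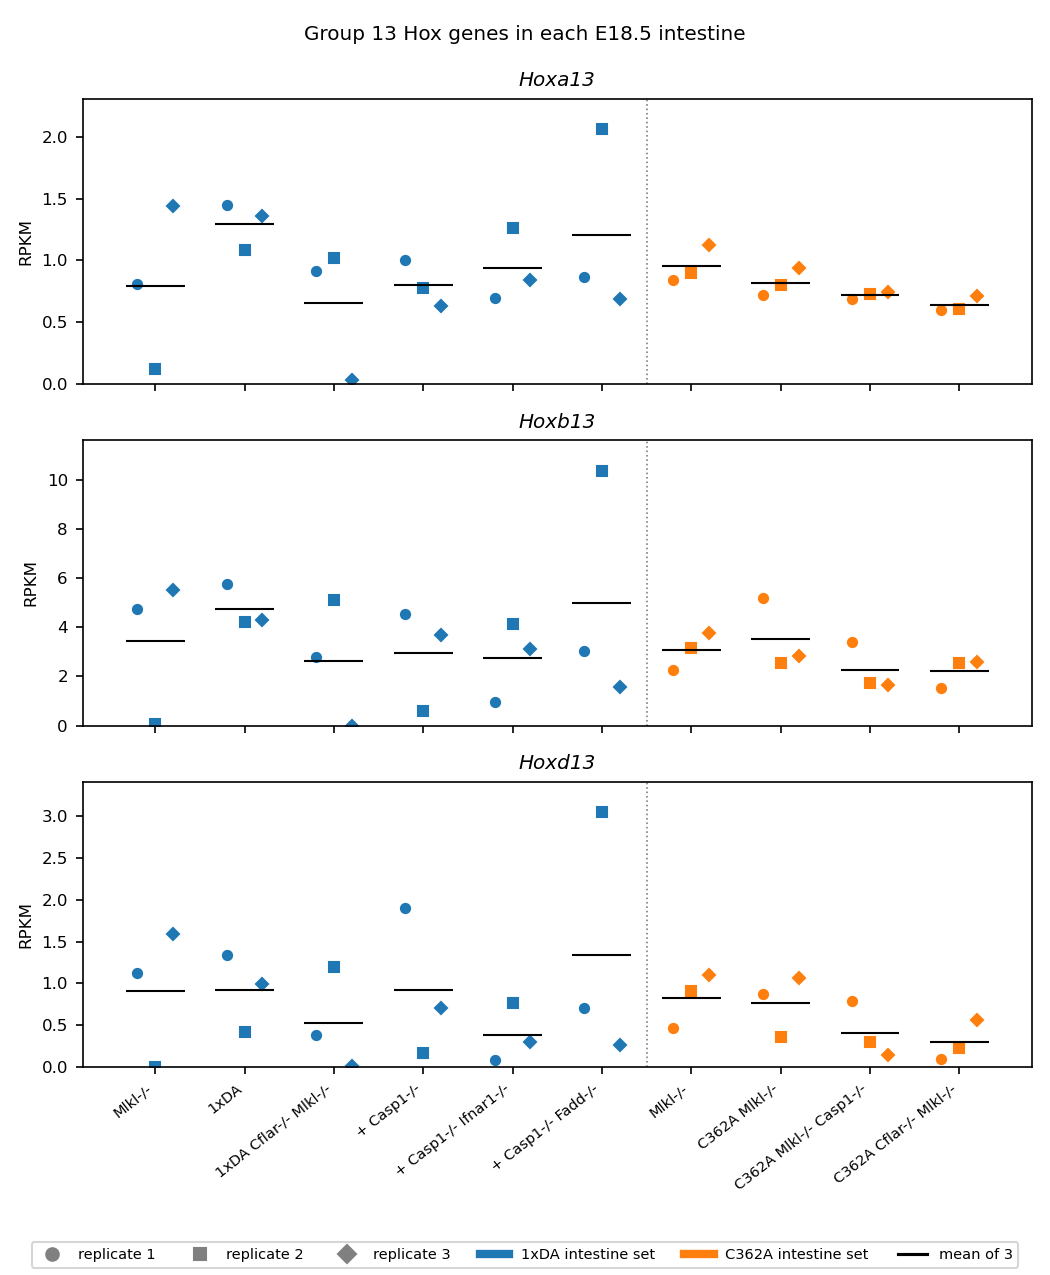
RPKM of *Hoxa13*, *Hoxb13* and *Hoxd13* in each of the 30 intestines by genotype, with 3 points per group (replicates 1 to 3 by shape) and a line at their mean. In the 1xDA set *Hoxb13* lies between 0 and 10.4 RPKM, and in the C362A set it lies between 1.53 and 5.19.

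The 1xDA set was compared with its *Mlkl*-/- controls to ask what the 1xDA form of caspase-8 and the added losses did to positional genes. 34 of the 39 members had enough reads to be tested in this set; *Hoxb1*, *Hoxc11*, *Hoxc12*, *Hoxc13* and *Hoxd1* did not. In *Casp8* 1xDA intestines 0 of 34 were called and 0 passed the adjusted p alone, against 0.00545% of all genes tested under either rule. edgeR gave 2 members an unadjusted p under 0.05 (5.02% of all genes), and DESeq2 and limma-voom called 0 each. *Hoxc8*, a gene of thoracic identity, was at 3.51, 3.26 and 4.11 RPKM in controls and 2.14, 2.45 and 3.12 in *Casp8* 1xDA, a log2 fold change of -0.49 ± 0.22 (adjusted p = 0.966). *Hoxd8* was at 4.31, 4.27 and 3.40 RPKM and 3.07, 3.55 and 3.30, a log2 fold change of -0.27 ± 0.13 (adjusted p = 0.966). Neither passed, although the 3 *Casp8* 1xDA values of *Hoxc8* lay below the 3 controls and those of *Hoxd8* overlapped them. The members' median log2 fold change was -0.06, beside 0.02 over all genes and -0.15 over the 4 gut mesenchyme genes, and 0 marker genes were called.

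Loss of cFLIP with the 1xDA allele came with wide change in the tissue and small change in Hox genes. In *Casp8* 1xDA *Cflar*-/- *Mlkl*-/- intestines 0 of 34 members were called, against 22.2% of all genes, and 5 passed the adjusted p alone (1 up, 4 down), against 59.4% of all genes. The same 5 had an unadjusted p under 0.05 in edgeR (63.2% of all genes), and DESeq2 and limma-voom called 0 members each. Without replicate 3 of the controls, or without replicate 1 of the mutants, 1 member was called. *Hoxb9*, a gene of thoracic identity, was at 4.12, 3.68 and 3.21 RPKM in controls and 5.86, 5.50 and 4.85 in the mutants. All 3 mutants lay above the 3 controls, and the gene rose (log2 fold change 0.56 ± 0.16, adjusted p = 0.00577). *Hoxa4* was at 6.06, 6.33 and 6.84 RPKM and 4.11, 4.48 and 4.71. All 3 mutants lay below the controls, and the gene fell (log2 fold change -0.53 ± 0.16, adjusted p = 0.00923). The other 3 that fell were *Hoxc5* (-0.58), *Hoxb5* (-0.32) and *Hoxa5* (-0.31). Among these 5 the losses were in paralog groups 4 and 5 and the gain in group 9. Their paralogs *Hoxb4*, *Hoxc4* and *Hoxd4* of group 4 and *Hoxa9*, *Hoxc9* and *Hoxd9* of group 9 were tested and did not pass. The members' median was -0.22, beside -0.01 over all genes and -0.33 over gut mesenchyme genes. Enterocyte transcripts were lost in the same libraries. The 8 markers summed to 2784, 1328 and 2003 RPKM against 37743, 38043 and 33406 in controls, 6 of the 8 were called lower, none had 0 reads, and the most abundant, *Apoa1*, was at 1534, 764 and 1046 RPKM. Of 5 leukocyte markers tested, 3 were called higher and *Csf1r* lower. Of 4 genes of limb and body wall mesenchyme tested *Prrx1* alone was called, lower (log2 fold change -2.87, adjusted p = 7.6e-10), and the list of 8 summed to 17.7, 15.9 and 15.7 RPKM against 18.3, 17.2 and 17.4. The calls were 5 lower of 7 stomach genes, a list high in control replicate 3, and 2 higher of 6 epithelial, 1 higher and 3 lower of 4 ileal, 1 lower of 3 duodenal, 1 higher and 1 lower of 3 colon and 1 lower of 8 enteric neuron and glia genes. The 8 smooth muscle markers summed to 4263, 5364 and 4871 RPKM against 3318, 3406 and 3554, higher in each mutant, with 0 of 8 called. The part of these cells in the Hox changes was not tested.

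Loss of caspase-1 on this background was compared with the controls and with *Casp8* 1xDA *Cflar*-/- *Mlkl*-/-. Against controls, *Casp8* 1xDA *Cflar*-/- *Mlkl*-/- *Casp1*-/- intestines had 0 of 34 members called (4.34% of all genes) and 1 that passed the adjusted p alone (21.4% of all genes), with 2 at an unadjusted p under 0.05 (33.9%) and 0 called by DESeq2 or limma-voom. *Hoxb3*, a gene of hindbrain and pharyngeal tissue, was at 5.05, 5.22 and 6.26 RPKM in controls and 7.92, 7.25 and 6.01 in the mutants. It rose (log2 fold change 0.36 ± 0.12, adjusted p = 0.0444), and the groups overlapped through control replicate 3. *Hoxa3*, its paralog, was at 5.37, 4.82 and 5.47 RPKM and 6.48, 6.85 and 6.02, a log2 fold change of 0.31 ± 0.13 that did not pass (adjusted p = 0.105), with all 3 above the controls. Against *Casp8* 1xDA *Cflar*-/- *Mlkl*-/-, 0 of 34 were called (13.4% of all genes) and 6 rose by the adjusted p alone (46.9%), the 6 with an unadjusted p under 0.05 (53.7%), again with 0 by DESeq2 and limma-voom. Without replicate 3 of the mutants, 1 was called. *Hoxb5* was at 12.9, 13.8 and 12.7 RPKM with caspase-1 and 20.5, 20.5 and 17.2 without it (log2 fold change 0.56 ± 0.13, adjusted p = 0.00197), beside 17.9, 12.6 and 18.7 in controls. *Hoxb3* was at 4.60, 4.79 and 5.43 RPKM with caspase-1 (log2 fold change 0.52 ± 0.12, adjusted p = 0.00219). For both genes the mutants lay above *Casp8* 1xDA *Cflar*-/- *Mlkl*-/- and overlapped the controls. *Hoxa4* (0.51), *Hoxa5* (0.52), *Hoxc5* (0.55) and *Hoxd3* (0.81) also rose, and the members' median was 0.19, beside 0.03 (all genes) and 0.45 (gut mesenchyme, 0.17 against controls). Replicates 1 and 2 of these intestines stood apart from replicate 3. The 4 erythroid markers summed to 1929, 979 and 334 RPKM, led by *Hbb-bt*, all 4 were called higher than with caspase-1, and *Fabp6*, an ileal gene, was at 6.01, 4.001 and 129. Over all genes the counts of replicate 3 differed from those of replicates 1 and 2 by a mean chi-square of 69.2 and 70.8 per gene, against 13.2 between those 2. The enterocyte list changed most against *Casp8* 1xDA *Cflar*-/- *Mlkl*-/-, with 6 of 8 genes called higher (*Lct* 7.33, *Fabp1* 6.63 and *Fabp2* 4.66 ahead) and sums of 17849.7, 21750.4 and 24361 RPKM against 2784, 1328 and 2003. Of 5 leukocyte genes tested *S100a8* (-2.95) and *Itgam* (-1.42) were called lower and *Csf1r* (1.61) higher, with sums of 50.1, 51.4 and 88.2 against 58.0, 51.1 and 130.3, and *Prrx1* (2.23) was the 1 of 4 genes of limb and body wall mesenchyme called, higher. The other calls were 1 lower of 6 epithelial, 1 lower of 8 smooth muscle, 1 lower of 7 fibroblast, 1 higher of 7 stomach, 1 higher of 3 duodenal, 2 higher and 1 lower of 4 ileal and 1 higher and 1 lower of 3 colon genes. Against controls the calls were 2 lower of 8 enterocyte, 1 higher of 5 leukocyte, 3 higher of 4 erythroid and 5 lower of 7 stomach genes. Of the 15 members of groups 4 to 8, 12 were highest in replicate 1 and 12 lowest in replicate 3. In groups 9 to 13, of 14 members with a read, 8 were highest in replicate 1 and 11 lowest in replicate 2. Replicates 1 and 2 are also the ones near the controls in *Mlkl* and *Casp8*. With the group reduced to replicate 3, an alternative chosen after seeing the data, the other groups supply the spread and 1 library the level. The log2 fold changes over *Casp8* 1xDA *Cflar*-/- *Mlkl*-/- were 0.39 for *Hoxb5*, 0.28 for *Hoxb3*, 0.12 for *Hoxa4*, 0.18 for *Hoxa5*, 0.17 for *Hoxc5* and 0.68 for *Hoxd3*, each of the same sign and smaller than with all 3. Against controls the log2 fold change of *Hoxb3* was 0.13 with replicate 3 alone, beside 0.36 with all 3. In that fit 0 of 35 members were called against controls (7.38% of all genes) and 0 against that group (9.36%), and 2, *Hoxb9* and *Hoxc6*, and 0 passed the adjusted p alone (21.7% and 27.2% of all genes). Whether blood, gut region or genotype moved the Hox levels was not tested.

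Loss of the interferon receptor was added to *Casp8* 1xDA *Cflar*-/- *Mlkl*-/- *Casp1*-/-. These intestines, which differ from controls in the other alleles too, had the most members past the adjusted p of the 1xDA set. The share of members was below that of all genes. Against controls 1 of 34 members was called in *Casp8* 1xDA *Cflar*-/- *Mlkl*-/- *Casp1*-/- *Ifnar1*-/- (12.4% of all genes), and 8 passed the adjusted p alone, 1 up and 7 down (48.3% of all genes). *Hoxd12*, a digit gene at the posterior end of HoxD (ENSMUSG00000001823, chr2:74675013-74677705), was at 0.376, 0.226 and 0.547 RPKM in controls and 0.0331, 0.142 and 0.148 in the mutants. All 3 mutants were below the controls, and the gene was called lower (log2 fold change -1.80 ± 0.67, adjusted p = 0.0352), also by DESeq2 and limma-voom. The call rested on single libraries. It was lost without control replicate 1 or 3 (log2 fold change -1.82 and -1.45) and without replicate 1, 2 or 3 of the mutants (-1.38, -2.05 and -2.09), which leaves 0 members called in each case. The gene's coefficient of variation was 0.466, above 98.7% of genes. *Hoxb9* rose (0.58), at 5.43, 5.60 and 5.39 RPKM. *Hoxb5* (-0.54), *Hoxc8* (-0.69), *Hoxa4* (-0.56), *Hoxd4* (-0.64), *Hoxc4* (-0.58) and *Hoxa5* (-0.35) fell. Of the 34 members 29 were lower than in controls, with a median of -0.34 beside 0.00 (all genes) and -0.41 (gut mesenchyme), and their summed RPKM was 106, 113 and 111 against 135, 124 and 140.2. Markers differed beside them. Of 5 leukocyte genes tested 3 were called higher (*S100a8* 1.65, *Itgam* 1.17 and *Adgre1* 1.14), with sums of 80.9, 94.5 and 94.5 RPKM against 62.8, 73.9 and 61.5. Of 8 enterocyte genes 3 were called lower and *Krt20* higher, 3 of 4 ileal genes and *Car1* of the colon list higher, 2 of 4 erythroid genes and 1 of 8 enteric neuron and glia genes lower, and 5 of 7 stomach genes lower, a list high in control replicate 3 alone. Replicate 1 of the mutants, which had the lowest *Hoxd12*, was lowest for 11 of the 15 members of groups 9 to 13 with a read. Over all genes its counts differed from those of replicates 2 and 3 by a mean chi-square of 34.1 and 29.9 per gene, against 5.51 between those 2. The part of cell types or of this library was not tested.

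Against *Casp8* 1xDA *Cflar*-/- *Mlkl*-/- *Casp1*-/-, the same intestines had 0 of 34 members called by edgeR (5.31% of all genes), 1 by DESeq2 and 0 by limma-voom. By the adjusted p alone 7 fell (30.6% of all genes), and 13 had an unadjusted p under 0.05, all lower (41.7%). Without replicate 2 or without replicate 3 of that group, 2 members were called. *Hoxb5* was at 12.6, 10.3 and 10.7 RPKM, below each library of that group (log2 fold change -0.79 ± 0.13, adjusted p = 0.000739). *Hoxb3* was at 4.72, 5.11 and 4.26 RPKM, below them too (log2 fold change -0.59 ± 0.12, adjusted p = 0.00248). *Hoxd3* (-0.96), *Hoxa4* (-0.54), *Hoxc4* (-0.51), *Hoxa5* (-0.57) and *Hoxb2* (-0.49) also fell. All 7 were in paralog groups 2 to 5, of which other members, among them *Hoxa2*, *Hoxa3* and *Hoxb4*, did not pass. Members had a median of -0.37, beside 0.00 (all genes) and -0.54 (gut mesenchyme). All 4 erythroid genes were called lower, with a sum of 114, 194 and 224 RPKM, and 3 of 4 ileal genes were called higher, with a sum of 757, 1105 and 978 led by *Fabp6*, against 142, 163 and 427. *Car1* of the colon list was called higher, and of 8 enterocyte genes 1 higher and 2 lower. Their part was not tested. With that group reduced to its replicate 3, the log2 fold changes of the 7 were -0.62 for *Hoxb5*, -0.36 for *Hoxb3*, -0.83 for *Hoxd3*, -0.15 for *Hoxa4*, -0.25 for *Hoxc4*, -0.23 for *Hoxa5* and -0.45 for *Hoxb2*, each of the same sign and smaller. In that fit, with 1 library in a group, 0.862% of all genes and 0 members passed.

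Loss of FADD, added to *Casp8* 1xDA *Cflar*-/- *Mlkl*-/- *Casp1*-/-, was compared in the same way. Against controls, *Casp8* 1xDA *Cflar*-/- *Mlkl*-/- *Casp1*-/- *Fadd*-/- intestines had 0 of 34 members called (3.78% of all genes) and 0 by the adjusted p alone (18.4% of all genes), with 2 at an unadjusted p under 0.05 in edgeR (31.1%) and 0 called by DESeq2 or limma-voom. Without control replicate 3, 1 was called. That member was *Hoxd11*, a gene of the forearm and of posterior trunk, at 1.04, 1.26 and 0.401 RPKM in controls and 0.513, 0.470 and 0.430 in the mutants (log2 fold change -0.92 ± 0.41, adjusted p = 0.139 with all libraries). *Hoxb5* was at 15.0, 13.5 and 11.7 RPKM (log2 fold change -0.29 ± 0.13, adjusted p = 0.141), inside the range of the controls in 2 of 3 libraries. Against *Casp8* 1xDA *Cflar*-/- *Mlkl*-/- *Casp1*-/-, 0 of 34 were called (3.44% of all genes; 6 at an unadjusted p under 0.05 beside 31.6%, 0 by DESeq2 or limma-voom) and 3 fell by the adjusted p alone (17.9%). They were *Hoxb5* (log2 fold change -0.53 ± 0.13, adjusted p = 0.00970), *Hoxb3*, at 4.95, 5.32 and 5.51 RPKM (log2 fold change -0.42 ± 0.12, adjusted p = 0.0226), and *Hoxa2* (-0.55). Each library without FADD lay below each with it for *Hoxb5* and *Hoxb3*. The medians of the members were -0.13 and -0.25, beside -0.02 and -0.03 over all genes and -0.20 and -0.33 over gut mesenchyme. The 5 comparisons with *Mlkl*-/- share their controls. All comparisons that use *Casp8* 1xDA *Cflar*-/- *Mlkl*-/- *Casp1*-/- share its libraries, erythroid and *Fabp6* levels included. Without FADD the erythroid markers summed to 268, 381 and 135 RPKM, and all 4 were called lower than in that group, with *Fabp2* (1.04) and *Prrx1* (1.01) called higher. The marker calls against controls were 1 higher of 8 enterocyte, 1 lower of 8 enteric neuron and glia and 4 lower of 7 stomach genes. With that group reduced to its replicate 3, the log2 fold changes of the 3 were -0.36 for *Hoxb5*, -0.19 for *Hoxb3* and -0.37 for *Hoxa2*. In that fit 0 members were called (3.01% of all genes), and *Hoxb9* alone passed the adjusted p, lower without FADD (10.5% of all genes).

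**Figure D3:**
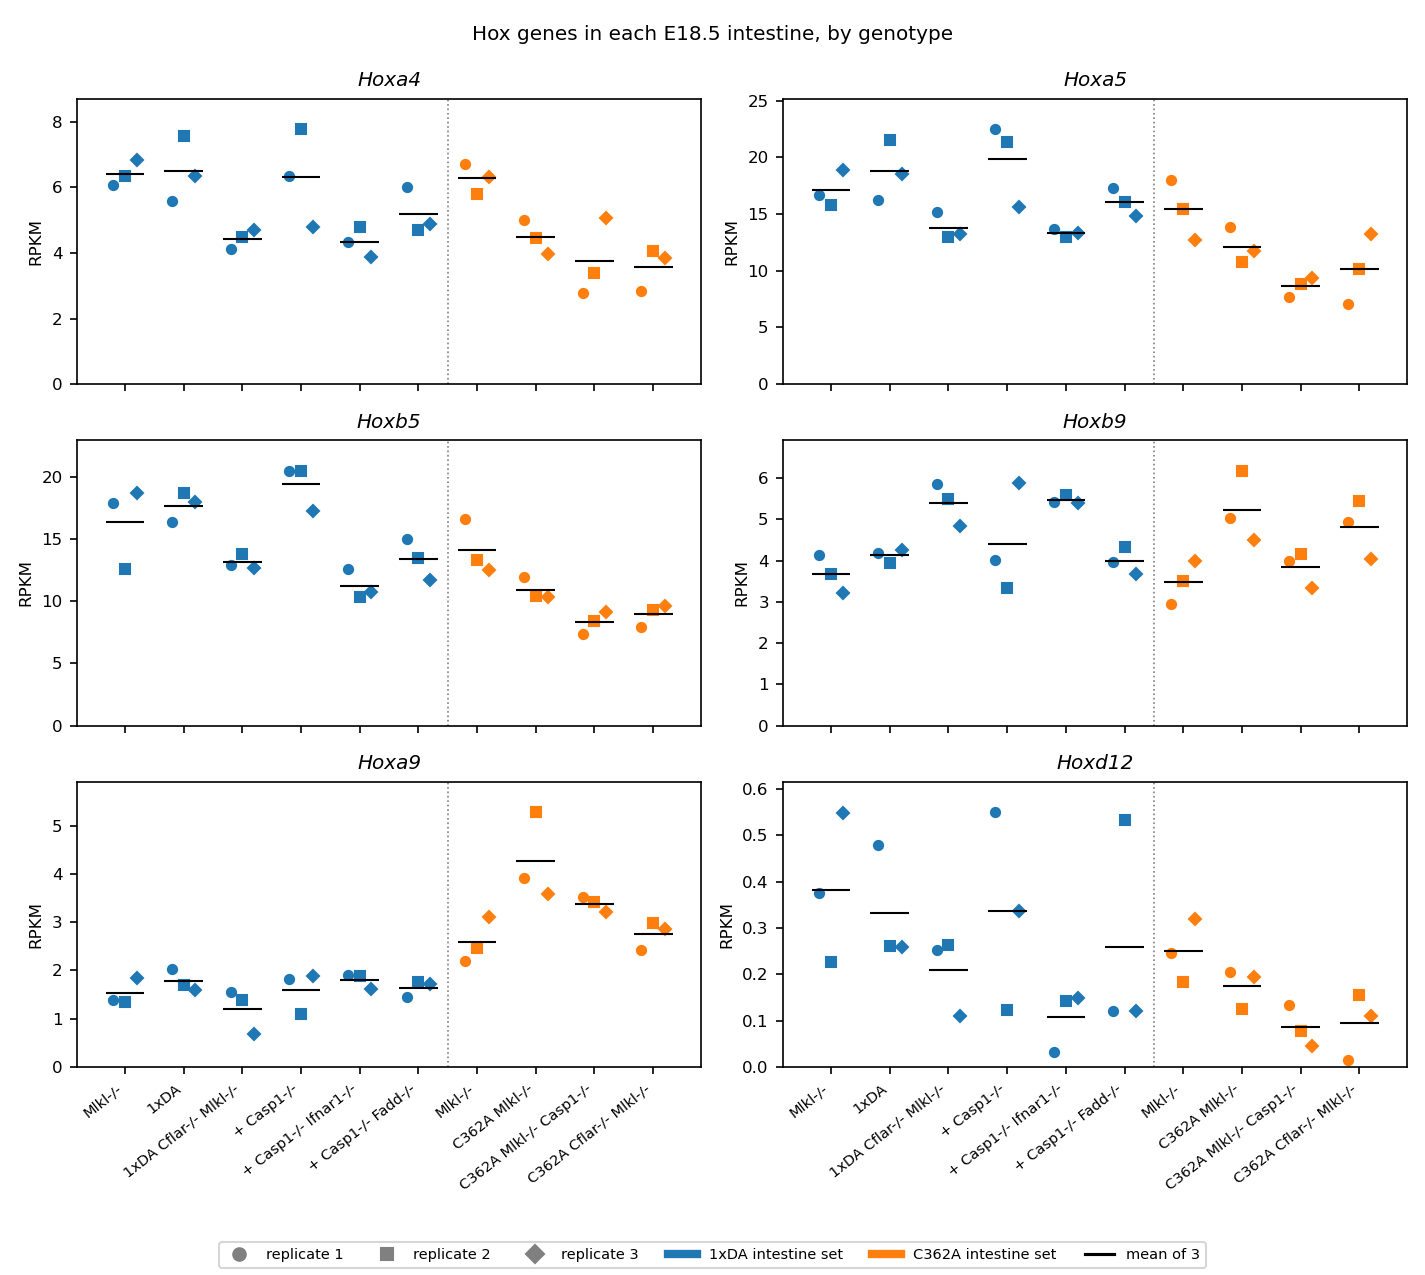
RPKM of 6 Hox genes in each of the 30 intestines by genotype, with 3 points per group (replicates 1 to 3 by shape) and a line at their mean. *Hoxb9* is higher in *Casp8* 1xDA *Cflar*-/- *Mlkl*-/- (5.86, 5.50 and 4.85 RPKM) than in the controls of that set (4.12, 3.68 and 3.21), and *Hoxd12* is lowest in *Casp8* C362A *Mlkl*-/- *Casp1*-/- and *Casp8* C362A *Cflar*-/- *Mlkl*-/-, at 0.0856 and 0.0940 RPKM on average.

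The C362A set asked the same of caspase-8 without protease activity, with 34 members tested and the same 5 left out. In *Casp8* C362A *Mlkl*-/- intestines 0 of 34 were called (18% of all genes), with 8 at an unadjusted p under 0.05 (49.4%) and 0 called by DESeq2 or limma-voom, and 4 passed the adjusted p alone, 3 up and 1 down (42.1% of all genes). *Hoxa9*, a gene of thoracic and lumbar identity that is also known in blood stem cells, was at 2.19, 2.46 and 3.11 RPKM in controls and 3.91, 5.28 and 3.59 in *Casp8* C362A *Mlkl*-/-. All 3 mutants lay above the controls, and the gene rose (log2 fold change 0.70 ± 0.17, adjusted p = 0.00375). *Hoxb9*, its paralog, was at 2.96, 3.50 and 3.98 RPKM and 5.03, 6.18 and 4.50, again above each control (log2 fold change 0.57 ± 0.16, adjusted p = 0.0124). *Hoxb6* rose (0.52) and *Hoxb5* fell (-0.40). Members had a median of 0.00, beside 0.02 (all genes) and -0.19 (gut mesenchyme). Leukocyte transcripts were high in the same libraries. The 6 markers summed to 276, 322 and 334 RPKM against 59.3, 68.2 and 83.2 in controls, 3 of 5 tested were called higher, none had 0 reads, and *S100a8*, a neutrophil gene, rose most (log2 fold change 4.69, adjusted p = 4.11e-08). The enterocyte list summed to 15788, 14452 and 17619 RPKM against 27487, 39656 and 47269, with 5 of 8 called lower and *Krt20* higher. *Prrx1* (-2.13, adjusted p = 4.44e-07) was called lower, and the other calls were 3 higher and 2 lower of 6 stomach, 2 higher of 4 ileal, 1 higher and 1 lower of 3 colon, 1 lower of 8 enteric neuron and glia and 2 lower of 4 erythroid genes. The part of these cells in the Hox changes was not tested.

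With caspase-1 lost as well, 1 of 34 members was called against controls in *Casp8* C362A *Mlkl*-/- *Casp1*-/- (10.5% of all genes), and 7 fell by the adjusted p alone (36.0% of all genes). The called gene was *Hoxd12*, at 0.246, 0.183 and 0.320 RPKM in controls and 0.135, 0.0770 and 0.0453 in the mutants. All 3 mutants were below the controls (log2 fold change -1.47 ± 0.54, adjusted p = 0.0450). DESeq2 called it, and limma-voom and edgeR with a block on replicate number did not. The call was lost without replicate 1, 2 or 3 of the controls (log2 fold change -1.49, -1.68 and -1.30) and without replicate 2 or 3 of the mutants (-1.43 and -1.20). The count was then 0, except that 3 other members were called without replicate 3 of the mutants. *Hoxb5*, at 7.38, 8.40 and 9.09 RPKM against 16.6, 13.3 and 12.5, fell (-0.74), as did *Hoxa5* (-0.81), *Hoxa4* (-0.71), *Hoxc4* (-0.69), *Hoxb3* (-0.46) and *Hoxa3* (-0.50). For *Hoxb5* and *Hoxa5* each mutant was below each control. The summed RPKM of the 39 was 95.9, 105 and 111, against 135, 128 and 129.7, and the members' median was -0.31, beside 0.00 (all genes) and -0.46 (gut mesenchyme). Of 4 ileal genes 3 were called higher (*Fabp6* 3.40, *Slc51b* 1.71 and *Slc10a2* 1.48), with sums of 862, 728 and 754 RPKM against 215, 312 and 341. Of 8 enterocyte genes 2 were called higher, and *Col1a1* of the fibroblast and *Alas2* of the erythroid list lower. Of 8 enteric neuron and glia markers 5 were called lower, with a sum of 32.0, 45.7 and 55.7 RPKM against 82.1, 71.3 and 58.0. The 8 smooth muscle markers summed to 1041, 1649.5 and 2143 RPKM against 2589.5, 2386 and 1714, with *Myh11* called lower. Replicate 1 of the mutants was lowest for both of these lists and for 13 of the 15 members of groups 4 to 8. The part of cell types or gut region was not tested.

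In *Casp8* C362A *Cflar*-/- *Mlkl*-/- intestines 1 of 34 members was called against controls (24.6% of all genes), and 9 passed the adjusted p alone, 2 up and 7 down (52.8% of all genes). *Hoxd12* was again the called gene, at 0.0153, 0.156 and 0.111 RPKM (log2 fold change -1.36 ± 0.52, adjusted p = 0.0406). All 3 mutants were below the controls. DESeq2 and limma-voom called 3 members each, and 0 were called when these 2 groups were fitted alone. With a block on replicate number *Hoxd12* was not called. The call on *Hoxd12* was lost without control replicate 1 or 3 (log2 fold change -1.34 and -1.15) and without replicate 1 or 3 of the mutants (-0.89 and -1.49). The count was 0 without replicate 1 of the mutants and 2 without its replicate 3. *Hoxb9* (0.46) and *Hoxb6* (0.50) rose. *Hoxc8* (-0.99), *Hoxa4* (-0.82), *Hoxc5* (-0.71), *Hoxb5* (-0.67), *Hoxa5* (-0.61) and *Hoxa13* (-0.57) fell. *Hoxb5* was at 7.92, 9.33 and 9.62 RPKM and *Hoxa4* at 2.85, 4.06 and 3.83, each below every control. Replicate 1 was the lowest of its group for 7 of the 8 members of groups 1 to 3, 12 of the 15 of groups 4 to 8 and 10 of the 14 of groups 9 to 13 with a read. Over all genes it was replicate 3 that stood apart, with a mean chi-square of 66.2 and 65.6 per gene from replicates 1 and 2 against 24.3 between those, and the controls of the set differed by 27.2 (replicates 1 and 2), 68.9 (1 and 3) and 24.6 (2 and 3). Members had a median of -0.18, beside 0.03 (all genes) and -0.60 (gut mesenchyme). Enterocyte markers summed to 2246, 2946 and 6714 RPKM, with 6 of 8 called lower and *Krt20* higher, and the leukocyte list to 203, 194 and 147, with 3 of 5 tested called higher and *Csf1r* lower. The 8 smooth muscle markers summed to 3803, 4452 and 3670.4 RPKM against 2589.5, 2386 and 1714, with *Tagln* (1.66) and *Des* (1.08) called higher. *Prrx1* (-2.65, adjusted p = 6.17e-08) was called lower, and the other calls were 1 higher of 6 epithelial, 2 higher and 2 lower of 6 stomach, 1 lower of 3 duodenal, 1 higher and 2 lower of 4 ileal, 1 higher and 1 lower of 3 colon and 2 lower of 8 enteric neuron and glia genes. Their part was not tested.

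Within the C362A set, *Casp8* C362A *Mlkl*-/- *Casp1*-/- was also compared with *Casp8* C362A *Mlkl*-/-, to ask what loss of caspase-1 did. 0 of 34 members were called (11.3% of all genes; 7 at an unadjusted p under 0.05 beside 43.5%, 0 by DESeq2 or limma-voom), and 4 fell by the adjusted p alone (33.5% of all genes). Without replicate 1, or without replicate 3, of the former 1 member was called. *Hoxb3* was at 6.48, 8.63 and 6.54 RPKM with caspase-1 and 4.94, 5.04 and 5.05 without it (log2 fold change -0.47 ± 0.12, adjusted p = 0.0105). *Hoxb4*, its neighbour, was at 6.72, 8.46 and 6.43 RPKM and 4.83, 5.15 and 5.16 (log2 fold change -0.45 ± 0.13, adjusted p = 0.0176). The groups did not overlap for either gene. *Hoxa2* (-0.59) and *Hoxa3* (-0.50) also fell. All 4 were in paralog groups 2 to 4, of which other members, among them *Hoxb2*, *Hoxa4* and *Hoxc4*, did not pass. In *Casp8* C362A *Cflar*-/- *Mlkl*-/- against *Casp8* C362A *Mlkl*-/-, 0 of 34 were called (6.06% of all genes; 1 at an unadjusted p under 0.05 beside 32.4%, 0 by DESeq2 or limma-voom). 1 member fell by the adjusted p alone (19.4% of all genes), and 1 was called without replicate 3 of the former. *Hoxa9* was at 2.42, 2.98 and 2.85 RPKM, below each library with the gene (log2 fold change -0.61 ± 0.17, adjusted p = 0.0204). *Hoxd13* was at 0.868, 0.357 and 1.06 RPKM with *Cflar* and 0.0939, 0.232 and 0.566 without it (log2 fold change -1.32 ± 0.62, adjusted p = 0.159), and the groups overlapped. The 5 comparisons of this set share libraries with each other. Leukocyte markers fell with the loss of caspase-1, with 3 of 5 called lower and sums of 83.0, 88.5 and 81.6 RPKM, while 6 of 8 enterocyte markers and *Prrx1* (2.16) were called higher. The other calls were 1 higher and 2 lower of 6 stomach, 2 higher of 4 ileal and 1 higher of 3 colon genes. With *Cflar* lost instead, 7 of 8 enterocyte markers, *Csf1r*, *Pga5* and *Fabp6* were called lower and *Tagln* higher. The medians of the members were -0.21 and -0.23, beside -0.02 and -0.02 over all genes and -0.28 and -0.31 over gut mesenchyme. The part of cell types was not tested.

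The 2 sets share no library, so members that passed the adjusted p in both could be counted. Of the 5 members that passed in *Casp8* 1xDA *Cflar*-/- *Mlkl*-/- and the 9 in *Casp8* C362A *Cflar*-/- *Mlkl*-/-, each against its own controls, 5 were the same with the same sign, 100% of the first list and 55.6% of the second, beside 71.1% and 75.7% over all genes that passed. They were *Hoxb9*, which rose, and *Hoxa4*, *Hoxa5*, *Hoxb5* and *Hoxc5*, which fell. Between *Casp8* 1xDA *Cflar*-/- *Mlkl*-/- and *Casp8* C362A *Mlkl*-/- 2 were shared, *Hoxb9* and *Hoxb5*, 40% of 5 and 50% of 4, beside 55.6% and 74.2% over all genes. Between *Casp8* 1xDA *Cflar*-/- *Mlkl*-/- *Casp1*-/- *Ifnar1*-/- and *Casp8* C362A *Mlkl*-/- *Casp1*-/- 5 were shared, 62.5% of 8 and 71.4% of 7, beside 50.8% and 64.5% over all genes, and all 5 fell, namely *Hoxa4*, *Hoxa5*, *Hoxb5*, *Hoxc4* and *Hoxd12*. Loss of caspase-1 moved *Hoxb3* in opposite directions, up in the 1xDA set and down in the C362A set, and no member passed in the same direction, whereas over all genes 44.0% and 58.4% of those that passed were shared with the same sign. In the 1xDA set the gain of *Hoxb3* was 0.28 with replicate 3 of the mutants alone. Sharing between the sets was common over all genes, so it is not particular to Hox genes. The pairs of genotypes were chosen after the values were seen.

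The 2 groups of *Mlkl*-/- intestines, which carry the same label and differ in set, were compared as a measure of what a set alone brings. Of 36 members tested, 1 was called (1.85% of all genes) and 3 rose by the adjusted p alone in the C362A controls (9.42% of all genes). *Hoxd3*, a gene of the neck vertebrae, was at 0.525, 0.385 and 0.397 RPKM in the 1xDA controls and 0.875, 0.930 and 1.00 in the C362A controls (log2 fold change 1.11 ± 0.31, adjusted p = 0.0469). The groups did not overlap. The call was lost without any 1 of the 1xDA controls (log2 fold change 1.25, 1.03 and 1.05) and without replicate 2 or 3 of the C362A controls (1.11 and 1.06), leaving 0 members called. Without replicate 1 of the C362A controls 2 were called. DESeq2 called 2 members and edgeR with another scaling (RLE) called 0. *Hoxd4*, within *Hoxd3*, was at 1.15, 0.854 and 0.890 RPKM and 1.15, 2.16 and 2.39 and rose (0.98), and *Hoxa9* was at 1.38, 1.35 and 1.84 and 2.19, 2.46 and 3.11 and rose (0.77). For *Hoxa9* the higher level ran through the set. Over the 18 intestines of the 1xDA set *Hoxa9* was at 0.685 to 2.03 RPKM (median 1.66), and over the 12 of the C362A set at 2.19 to 5.28 (median 3.16), with no overlap. For *Hoxd4* the ranges were 0.474 to 1.27 and 1.15 to 3.58, which overlapped. Those of *Hoxd3*, the called gene, overlapped too, at 0.311 to 0.832 and 0.695 to 1.56. *Fabp6*, an ileal gene, was the 1 marker gene called, lower in the C362A controls (-1.39, adjusted p = 0.0182), and 1xDA control replicate 3 held the stomach transcripts. The members' median was -0.05, beside -0.16 over gut mesenchyme, -0.66 over fibroblast and -0.60 over smooth muscle genes. Set, colony, gut region and run cannot be told apart.

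Control MEFs had a different profile. HoxA, HoxB and HoxD were led by members posterior to those that led them in intestine, and HoxC was led by *Hoxc6* in both. *Hoxb9* was at 18.2, 23.5 and 26.6 RPKM, *Hoxc6*, a gene of the upper trunk, at 16.2, 18.8 and 25.6 RPKM, and *Hoxd13* at 20, 26.0 and 8.86 RPKM. *Hoxc8* followed at 11.6, 14.8 and 20.9 RPKM. The means of *Hoxb9* (22.8 ± 4.24, SD over 3 libraries), *Hoxc6* (20.2 ± 4.87), *Hoxd13* (18.3 ± 8.68) and *Hoxc8* (15.8 ± 4.73) followed in that order, each within 1 SD of the next. In HoxA the leading members were *Hoxa10*, known in the thigh and uterus, at 13.3, 11.5 and 5.03 RPKM, and *Hoxa7*, at 11.8, 7.97 and 9.38 RPKM. The second of HoxB was *Hoxb7*, at 3.97, 4.11 and 5.33 RPKM, well under *Hoxb9*, and the second of HoxD was *Hoxd8*, at 4.16, 6.26 and 7.41 RPKM. By mean, 31 of the 39 members were at 1 RPKM or more and 5 at 10 or more. *Hoxb1* had 0 reads in the 6 MEF libraries. The summed RPKM was 196, 197 and 193, above each of the 30 intestines, whose highest was 161. Of this sum, HoxC gave 27.6, 30.0 and 35.4%, HoxA 33.5, 27.4 and 22.3%, HoxB 21.4, 21.5 and 30.7% and HoxD 17.5, 21.2 and 11.6%, and groups 9 to 13 gave 52.3, 57.1 and 35.3%.

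MEFs were compared with control intestine to describe positional identity across tissues, as the mean of the 3 *Mlkl*-/- MEF libraries against both groups of *Mlkl*-/- intestines. Of 36 members tested 26 were called, 17 higher and 9 lower in MEFs, against 56.5% of all genes. By the adjusted p alone 31 passed, 18 up and 13 down, against 84.4% of all genes. Over all genes most differed too, so the count alone is not particular to Hox genes. The count was 20 with the 1xDA controls alone and 24 with the C362A controls alone. *Hoxb1*, *Hoxc12* and *Hoxd1* were not tested. The members' median log2 fold change was 0.49, also with *Hoxc13* at its bound, beside -0.15 over all genes.

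Of the 8 members that differed most, 7 were in groups 9 to 13, and all 8 were called in each of the 9 fits without 1 library. *Hoxc13*, known for hair and nails, had 0 reads in the 6 control intestines and 146 in the control MEFs, where it was at 0.601, 1.19 and 0.509 RPKM. It was at least 91.8-fold higher in MEFs (log2 6.52), taking 3 reads over the intestine group as the floor, and was called (adjusted p = 1.26e-05). *Hoxb13* went the other way, at 0.0472 to 5.53 (median 3.46) RPKM in intestine and 0.203, 0.0336 and 0.0236 in MEFs (log2 fold change -5.05 ± 1.07, adjusted p = 0.000862). Its MEF level rested on 13, 2 and 1 reads, and leaving out 1 library gave -6.69 to -4.62. It was not tested with the 1xDA controls alone, of which replicate 2 was near 0, it was called with the C362A controls alone (-4.99), and limma-voom did not call it. *Hoxc10*, a gene of lumbar level and hindlimb, was at 0.179 to 0.840 (median 0.350) RPKM in intestine and 13.9, 14.01 and 7.29 in MEFs (log2 fold change 4.88 ± 0.27, adjusted p = 7.02e-09). *Hoxd13* was at 0 to 1.60 (median 1.00) RPKM in intestine and 20, 26.0 and 8.86 in MEFs (log2 fold change 4.41 ± 0.52, adjusted p = 6.79e-06). The ranges of MEFs and intestine did not overlap for *Hoxc13*, *Hoxc10* or *Hoxd13*, whereas for *Hoxb13* MEF replicate 1 lay above the lowest control intestine. *Hoxc9*, of the lower thorax, was at 0.293 to 0.564 (median 0.387) RPKM in intestine and 3.13, 3.17 and 3.76 in MEFs (log2 fold change 3.03 ± 0.18, adjusted p = 1.3e-08). *Hoxc11* was at 0.103 to 0.245 (median 0.141) RPKM in intestine and 1.72, 1.82 and 0.0516 in MEFs (log2 fold change 3.00 ± 0.64, adjusted p = 0.000928), where replicate 3 of the MEFs lay below every control intestine, and limma-voom did not call it. It was called with the 1xDA controls alone (2.75) and not tested with the C362A controls alone. *Hoxd11* was lower in MEFs, at 0.154 to 1.26 (median 0.733) RPKM in intestine and 0.0929, 0.1002 and 0.0939 in MEFs (log2 fold change -2.82 ± 0.64, adjusted p = 0.00136), although its neighbours *Hoxd12* and *Hoxd13* were higher. It was tested with neither control group alone. *Hoxb5* was at 12.5 to 18.7 (median 15.0) RPKM in intestine and 2.29, 1.68 and 2.72 in MEFs (log2 fold change -2.78 ± 0.20, adjusted p = 7.18e-08), every MEF library far below every intestine.

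In HoxA, *Hoxa3* (-1.14), *Hoxa4* (-1.90) and *Hoxa5* (-1.56) were called lower in MEFs and *Hoxa7* (1.62), *Hoxa9* (1.51), *Hoxa10* (1.88), *Hoxa11* (2.19) and *Hoxa13* (2.28) higher. In HoxB, *Hoxb4* (-1.01) was called lower beside *Hoxb5* and *Hoxb13*, and *Hoxb9* (2.67) was the 1 member called higher. *Hoxb2* (-0.91), *Hoxb3* (-0.63), *Hoxb6* (-0.80) and *Hoxb7* (-0.68) were lower by the adjusted p alone. In HoxC all called members were higher, *Hoxc5* (1.04), *Hoxc6* (1.74) and *Hoxc8* (2.27) beside *Hoxc9*, *Hoxc10*, *Hoxc11* and *Hoxc13*. In HoxD, *Hoxd3* (-2.05) and *Hoxd4* (-1.61) were called lower with *Hoxd11*, *Hoxd10* (1.04) and *Hoxd12* (2.63) were called higher with *Hoxd13*, and *Hoxd8* (0.72) was higher by the adjusted p alone. *Hoxa2* (-0.35), *Hoxa6* (0.27), *Hoxb8* (-0.11), *Hoxc4* (-0.25) and *Hoxd9* (-0.35) did not pass. *Hoxc12*, which was not tested, had 0 reads in control intestine and 4 in control MEFs, all in replicate 1.

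**Figure D4:**
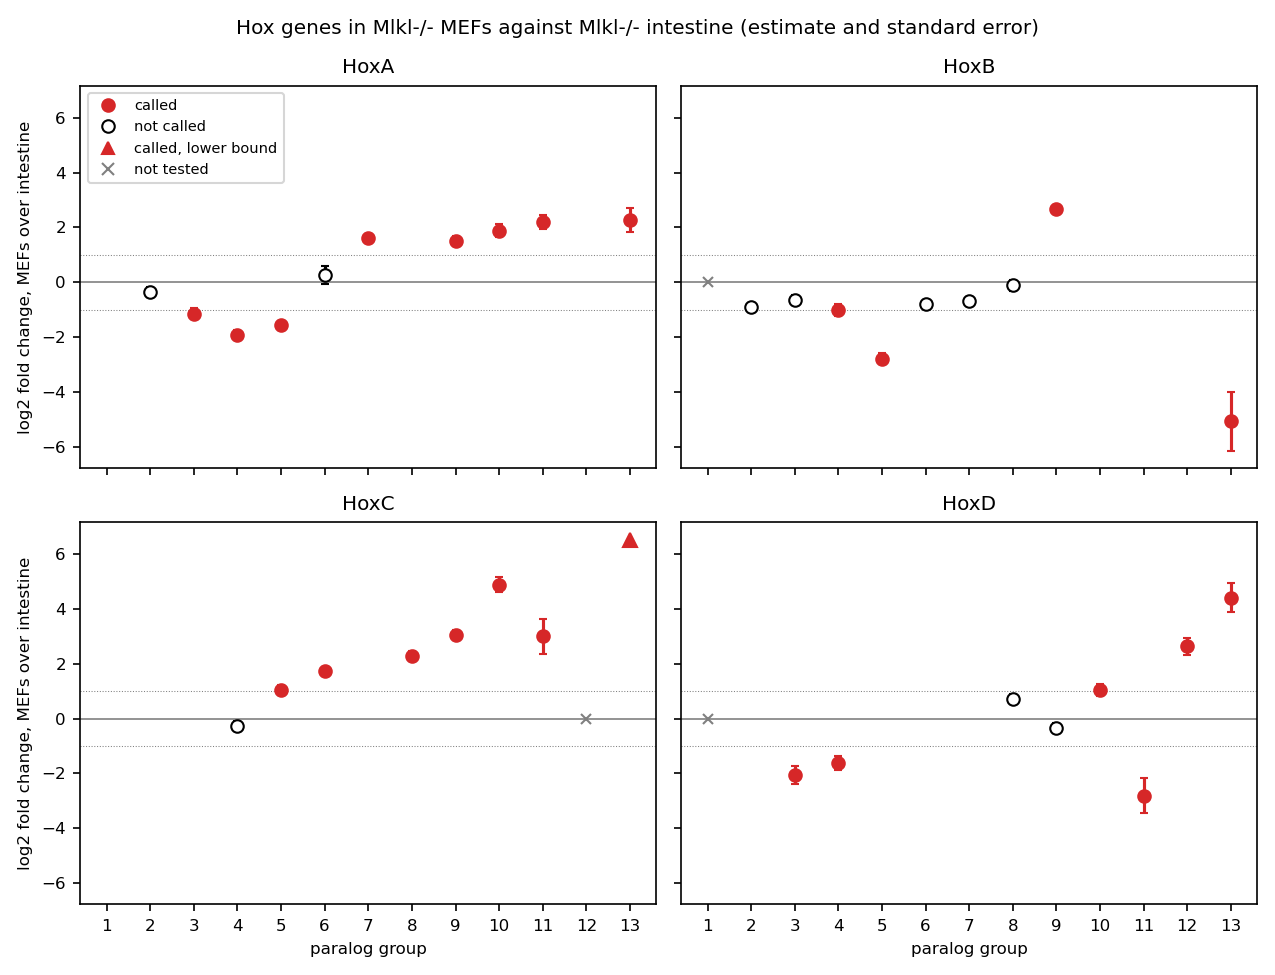
Log2 fold change of Hox genes in *Mlkl*-/- MEFs over *Mlkl*-/- intestine against its paralog group, with 1 panel per cluster and standard errors as bars. Filled points were called, open points were not, crosses were not tested, and the triangle is *Hoxc13* at its lower bound of 6.52. HoxC lies above 0 from group 5 on, *Hoxb13* (-5.05) and *Hoxd11* (-2.82) lie below.

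Genes of other cell types and genes that act with Hox proteins were counted in the same comparison. Of 8 genes of limb and body wall mesenchyme, 7 were called higher in MEFs and 1 lower, with *Tbx4* (11.23), *Tbx5* (10.67) and *Tbx15* (10.50) the largest, and *Prrx1* the most abundant in MEFs. All 4 genes of gut mesenchyme were lower (*Nkx2-3* -12.12, *Foxf1* -3.80, *Foxl1* -3.77), with *Foxf1* the most abundant in both tissues. Of 9 TALE homeodomain genes, whose products bind DNA together with Hox proteins, 4 were higher and 0 lower, among them *Pknox2* (1.77) and *Meis2* (1.10). Of 4 ParaHox and Evx genes tested, 1 was higher and 3 were lower, namely *Cdx2*, which specifies intestinal epithelium, *Cdx1* and *Pdx1* (fitted log2 fold changes -15.79, -13.64 and -10.54). *Cdx2* was at 128, 117 and 102 RPKM in the C362A controls and had 0 reads in control MEFs. Of 16 retinoic acid genes tested, 5 were higher and 6 lower, with *Crabp1* (7.47), *Crabp2* (5.98) and *Cyp26b1* (2.67) ahead. Of 26 Polycomb genes, whose complexes keep Hox genes silent, 6 were higher and 5 lower (*Cbx7* -2.40, *Bmi1* 1.61, *Ezh1* -1.46), and of 11 Trithorax genes, which keep them active, *Dpy30* alone was called (-1.31). Of 12 noncoding genes of the clusters tested, 3 were higher and 5 lower, with *Gm11539* (-3.79), *Hoxaas3* (-3.09) and *9530018H14Rik* (2.33) changing most.

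The cell type lists read the same comparison as follows. All 6 epithelial and all 8 enterocyte genes were called lower in MEFs, as were 4 of 8 enteric neuron and glia genes, 4 of 5 leukocyte genes tested, 4 of 4 erythroid genes, 2 of 4 stomach genes tested, 3 of 3 duodenal, 4 of 4 ileal and 2 of 3 colon genes. Smooth muscle was split, with 2 of 8 higher and 4 lower, *Acta2* being its most abundant gene in MEFs, and 5 of 7 fibroblast genes were higher with 0 lower, led in abundance by *Col1a1*. The part of cell type in the Hox difference was not tested.

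Between genotypes of MEFs, *Casp8* 1xDA *Cflar*-/- *Mlkl*-/- was compared with *Mlkl*-/-. Of 35 members tested, with *Hoxb1*, *Hoxd1*, *Hoxd3* and *Hoxd11* left out, 0 were called (0.0711% of all genes) and 0 passed the adjusted p alone (0.110% of all genes). edgeR gave 9 an unadjusted p under 0.05, 3 higher and 6 lower (6.47% of all genes), DESeq2 called 1 and limma-voom 0. *Hoxc12*, at the posterior end of HoxC, was at 0.134, 0 and 0 RPKM in controls and 1.504, 0.658 and 0.823 in the mutants. All 3 mutants were above the controls, with a log2 fold change of 4.17 ± 0.82 (adjusted p = 0.201), and DESeq2 and edgeR without the filter on low counts called it. The control level rested on 4 reads in 1 library, and leaving out 1 library gave 3.58 to 7.53. *Hoxc6* was at 13.6, 11.4 and 12.7 RPKM in the mutants, below each control (log2 fold change -0.67 ± 0.17, adjusted p = 0.408). *Hoxc13* was at 1.85, 1.06 and 2.73 RPKM against 0.601, 1.19 and 0.509, and *Hoxb13* at 1.09, 0.0473 and 4.34 against 0.203, 0.0336 and 0.0236, where replicate 2 stayed near the controls. Neither passed. The members' median was -0.13, beside 0.00, and 0 marker genes were called.

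In Hox genes a single MEF culture stood apart, which was seen only after the values were known. Replicate 3 of *Mlkl*-/- was the lowest of its group for 12 of the 16 members of groups 9 to 13 and the highest for 12 of the 15 of groups 4 to 8 and 6 of the 7 members of groups 1 to 3 that had a read. Over all genes it was replicate 1 that lay furthest, with a mean chi-square of 23.4 and 27.3 per gene from replicates 2 and 3 against 15.9 between those. *Hoxa11*, known with *Hoxd11* in the forearm, was at 10.7, 10.7 and 4.06 RPKM in controls and 9.998, 11.5 and 11.3 in *Casp8* 1xDA *Cflar*-/- *Mlkl*-/-. *Hoxd13* was at 20, 26.0 and 8.86 RPKM and 14.5, 27.6 and 26.1, and *Hoxc11* at 1.72, 1.82 and 0.0516 and 1.73, 2.30 and 1.95. The other 5 cultures ran from 9.998 to 11.5 for *Hoxa11* and from 1.72 to 2.30 for *Hoxc11*. *Tbx4*, of the hindlimb, was at 12.8, 8.53 and 1.07 RPKM in controls and 7.46, 10.8 and 9.06 in the mutants, low in the same culture, whereas *Tbx5*, of the forelimb, was at 6.85, 7.59 and 6.59 and 5.09, 5.26 and 5.49. The mix of limb and trunk cells in each culture was not tested. Leaving out this culture left 0 members called between genotypes. In the mutants, replicate 1 was the highest for 12 of 15 members of groups 4 to 8 and replicate 3 the lowest for 13.

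Differences of effects were tested as interactions. The effect of losing caspase-1 in the C362A set, from *Casp8* C362A *Mlkl*-/- to *Casp8* C362A *Mlkl*-/- *Casp1*-/-, was compared with that in the 1xDA set, from *Casp8* 1xDA *Cflar*-/- *Mlkl*-/- to *Casp8* 1xDA *Cflar*-/- *Mlkl*-/- *Casp1*-/-. The backgrounds also differ in *Cflar*. Of 35 members tested 1 was called (5.73% of all genes) and 6 passed the adjusted p alone, all lower in the C362A set (16.9% of all genes). *Hoxb3* was the called gene (log2 fold change -1.01 ± 0.18, adjusted p = 0.000547), by edgeR. In limma-voom, which called 0, its adjusted p passed and its log2 fold change of -0.99 did not. *Hoxa5* (-0.98), *Hoxb5* (-0.92), *Hoxa2* (-0.84), *Hoxb4* (-0.64) and *Hoxa3* (-0.57) were the other 5. In the same test 5 of 8 enterocyte genes (*Lct* -4.67, *Fabp1* -3.85 and *Fabp2* -2.35 ahead), 2 of 8 enteric neuron and glia genes, *Ptprc* of the leukocyte list and *Alas2* of the erythroid list were called lower. The members' median was -0.48, beside -0.07 (all genes) and -0.81 (gut mesenchyme), with 0 of 4 called. With the *Casp1*-null 1xDA group of this test reduced to its replicate 3, the log2 differences were -0.77 for *Hoxb3*, -0.63 for *Hoxa5*, -0.74 for *Hoxb5*, -0.65 for *Hoxa2*, -0.38 for *Hoxb4* and -0.46 for *Hoxa3*. In that fit 0 members were called (3.14% of all genes) and *Hoxb3* alone passed the adjusted p (5.44% of all genes). The part of cell types was not tested. The effect of the *Casp8* 1xDA *Cflar*-/- *Mlkl*-/- genotype was likewise compared between MEFs and intestine. Of 37 members tested 0 were called (15.3% of all genes; 4 at an unadjusted p under 0.05 beside 45.9%, 1 called by limma-voom) and 2 passed the adjusted p alone (38.4% of all genes). They were *Hoxb9* (log2 fold change -0.65 ± 0.22, adjusted p = 0.0221), which rose in intestine and was at 22.8, 19.9 and 22.0 RPKM in mutant MEFs against 18.2, 23.5 and 26.6 in controls, and *Hoxa2*, a gene of the branchial arches, at 1.86, 1.65 and 1.02 against 3.10, 2.11 and 2.09 in MEFs (log2 fold change -0.82 ± 0.29, adjusted p = 0.0317). The MEF groups overlapped for *Hoxb9* and did not for *Hoxa2*. Between MEFs of the same number, *Hoxa2* was lower in each mutant, and *Hoxb9* was higher in mutant replicate 1 and lower in replicates 2 and 3. This interaction was not fitted with the MEFs paired by number. The marker calls were 4 lower of 6 epithelial, 2 higher and 1 lower of 8 enterocyte, 2 lower of 8 smooth muscle, 1 higher of 4 gut mesenchyme (*Nkx2-3* 3.56), 2 higher of 8 limb and body wall mesenchyme (*Prrx1* 2.88) and 1 higher of 5 leukocyte genes (*Csf1r* 2.01). The members' median was -0.07, beside 0.84 over gut mesenchyme genes.

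Genes that bind with, control or neighbour the Hox genes were counted in the same comparisons. Of the 9 TALE, 4 ParaHox and Evx and 11 Trithorax genes none was called in any comparison of genotypes or sets or in either interaction. Polycomb genes were called in 1 or 2 of 26 at most. The share of all genes called in these comparisons ran from 0.00545% (*Casp8* 1xDA against controls) to 24.6% (*Casp8* C362A *Cflar*-/- *Mlkl*-/- against controls). *Cbx7*, a subunit of Polycomb complex 1, was higher in *Casp8* 1xDA *Cflar*-/- *Mlkl*-/- (1.40, adjusted p = 4.33e-08) and *Casp8* C362A *Cflar*-/- *Mlkl*-/- (1.08, adjusted p = 0.000258), *Phf1* was lower in both (-1.28 and -1.02), and *Pcgf5* was higher in the 1xDA groups without *Ifnar1* (1.09) or *Fadd* (1.42), in *Casp8* C362A *Mlkl*-/- (1.02) and in *Casp8* C362A *Mlkl*-/- *Casp1*-/- (1.36). Of the retinoic acid genes tested, 3 of 16 were called in *Casp8* 1xDA *Cflar*-/- *Mlkl*-/-, 3 of 17 in *Casp8* C362A *Mlkl*-/-, 2 of 17 in *Casp8* C362A *Mlkl*-/- *Casp1*-/- and 5 of 17 in *Casp8* C362A *Cflar*-/- *Mlkl*-/- against controls (beside 22.2, 18, 10.5 and 24.6% of all genes), among them *Stra6*, the retinol transporter (2.75, 1.46 and 2.22 in the first, second and last), *Rxra* (-1.42, -1.25 and -1.66 in the last 3) and *Aldh1a1* (-1.06 and -1.16 in the first 2). Within the clusters, 43 genes of the annotation were not protein-coding and 11 of them had no read. *Hoxaas3*, an antisense RNA of HoxA, was at 0.930, 0.778 and 0.808 RPKM in the 1xDA controls and 2.41, 2.17 and 2.38 in *Casp8* 1xDA *Cflar*-/- *Mlkl*-/-, and at 0.596, 0.751 and 0.774 in the C362A controls and 3.26, 1.42 and 1.97 in *Casp8* C362A *Cflar*-/- *Mlkl*-/-. It was called higher in both (log2 fold change 1.47, adjusted p = 2.84e-06, and 1.64, adjusted p = 0.000197), and in *Casp8* C362A *Mlkl*-/- (1.21). *Hoxaas2* was called lower in *Casp8* C362A *Mlkl*-/- *Casp1*-/- (-1.04) and in the interaction over *Casp1* (-1.10), *Gm27861* lower in that group than in *Casp8* C362A *Mlkl*-/- (-1.14), and *Gm53* higher in the C362A than in the 1xDA controls (1.16).

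The clusters also hold miRNA genes, which silence transcripts through a seed of bases 2 to 8. RefSeq (GRCm38.p6) placed 6 miRNA genes with 11 mature miRNAs within the clusters. The genes of the miR-10 and miR-196 families had 0 (*Mir10a*), 1 (*Mir10b*), 129 (*Mir196a-1*), 0 (*Mir196a-2*) and 2 (*Mir196b*) reads in the 36 libraries. Mature miRNAs were not measured by this assay. The sequences show, with the seed in capitals, that the members from different clusters share 1 seed in each family. The pair of miR-10 lies in HoxB and HoxD, and the pair of miR-196 in HoxB with HoxC and in HoxA.
miR-10a-5p: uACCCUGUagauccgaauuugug
miR-10b-5p: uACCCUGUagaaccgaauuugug
miR-196a-5p: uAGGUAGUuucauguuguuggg
miR-196b-5p: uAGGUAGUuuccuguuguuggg

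Promoters were read for the members that had a window. RefSeq windows of 300 bases around the gene start (GRCm38.p6) matched 22 of the 39 members, with 24 windows. The motif TTTATG, bound by the CDX homeodomain proteins, was sought on both strands and was in 5 of the 24 windows (20.8%), against 3893 of 32851 windows of all genes (11.9%). The 5 were those of *Hoxa7*, *Hoxb8*, *Hoxd3*, *Hoxd4* and 1 of *Hoxd11*. Members with a match did not move alike between tissues. *Hoxa7*, with 2 matches, was called higher in MEFs than in intestine, and *Hoxb8*, with 2, did not pass. The retinoic acid receptor motif DR5 was in 0 of 24, against 32 of all 32851 windows (0.0974%). *Hoxd3* and *Hoxd4*, which were both higher in the C362A than in the 1xDA controls and lower in MEFs than in intestine, are shown 5′ to 3′ with the matches in capitals, 1 in *Hoxd3* and 2 in *Hoxd4*. A match is a description of the letters and not of binding.
Hoxd3 promoter, chr2:74711743-74712042, plus strand: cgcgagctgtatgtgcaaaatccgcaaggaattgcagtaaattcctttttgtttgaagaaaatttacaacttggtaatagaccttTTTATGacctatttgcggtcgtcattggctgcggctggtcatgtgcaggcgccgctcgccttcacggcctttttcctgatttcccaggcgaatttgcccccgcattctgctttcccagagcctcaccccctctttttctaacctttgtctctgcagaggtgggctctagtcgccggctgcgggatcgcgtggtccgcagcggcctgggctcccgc
Hoxd4 promoter, chr2:74721728-74722027, plus strand: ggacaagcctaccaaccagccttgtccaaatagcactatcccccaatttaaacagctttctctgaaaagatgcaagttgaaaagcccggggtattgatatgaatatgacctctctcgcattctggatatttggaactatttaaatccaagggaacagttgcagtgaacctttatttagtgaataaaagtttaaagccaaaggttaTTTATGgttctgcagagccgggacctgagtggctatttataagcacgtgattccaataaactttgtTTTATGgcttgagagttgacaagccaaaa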

How the data were processed

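The authors aligned reads with GSNAP to GRCm38 and deposited, for each of the 36 libraries, a count of unique exonic reads per gene and an RPKM. The deposited count was the value analysed. RPKM values in the text were computed again from the count, the width of the gene and TMM-scaled library sizes, and the deposited RPKM served as a check of scale. GENCODE M21 symbols were matched to 52489 of the 52636 Ensembl identifiers, and 35778 had a read. Each set was fitted alone with edgeR 4.0.16 (R 4.3.3) by the quasi-likelihood test with Benjamini-Hochberg adjustment, after removal of genes with low counts, with 18360 genes tested in the 1xDA set, 19408 in the C362A set, 15465 in MEFs, 18233 in the controls of all 3, 19643 in all intestines and 18862 in the 1xDA set with MEFs. Alternatives were RLE scaling, limma-voom (limma 3.58.1), DESeq2 1.42.0, no filter, the 2 groups alone, a replicate block, no fold threshold, raw library totals and leaving out each library. Members and lists were chosen with earlier results of these data known. The text names called members (at most 8 per comparison, by size of change), the 2 most abundant members of each cluster in control intestine and control MEFs, the 2 with the smallest p where none was called, and at most 3 called genes per list. As to pairing, MEF cultures with the same number deviated together over all genes (r = 0.181, 0.270 and 0.310), and those with different numbers did not (-0.224 to -0.0630). Intestines with different numbers reached 0.336 in the 1xDA set and 0.418 in the C362A set. These 3 MEF values therefore do not settle whether the numbers pair the MEFs, and the labels do not say. With a block on replicate number the MEF count was 0 as well.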

Additional observations from a re-analysis of the deposited data

Results flagged for a closer look

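The loss of caspase-1 had different effects on 6 Hox genes in the 2 sets by the test of the difference itself, which flagged them. The log2 difference, C362A set less 1xDA set, was -1.01 for *Hoxb3*, -0.98 for *Hoxa5*, -0.92 for *Hoxb5*, -0.84 for *Hoxa2*, -0.64 for *Hoxb4* and -0.57 for *Hoxa3*. In the C362A set *Hoxa5* was at 13.9, 10.8 and 11.7 RPKM before and 7.71, 8.79 and 9.38 after the loss, and in the 1xDA set at 15.2, 12.97 and 13.2 and 22.5, 21.4 and 15.6. The 6 of 35 members passed the adjusted p beside 16.9% of all genes, and the 1 called stood beside 5.73%, so the result is not particular to Hox genes. With *Casp8* 1xDA *Cflar*-/- *Mlkl*-/- *Casp1*-/- reduced to its replicate 3, chosen after seeing the data, the differences kept their sign, at -0.38 to -0.77, and *Hoxb3* alone passed. The median over 4 gut mesenchyme genes was -0.81 in the same test, with none called, and over the members -0.48. Only the 1xDA background lacks *Cflar* as well, and set, colony and run cannot be told apart. The effect of *Casp8* 1xDA *Cflar*-/- *Mlkl*-/- on *Hoxa2* and *Hoxb9* differed between MEFs and intestine by the same kind of test, at -0.82 for *Hoxa2* and -0.65 for *Hoxb9* (log2, MEFs less intestine). *Hoxa2* in intestine was at 3.19, 2.43 and 3.18 RPKM in *Mlkl*-/- and 2.68, 2.92 and 3.78 in *Casp8* 1xDA *Cflar*-/- *Mlkl*-/-. The test between tissues was not fitted with the MEFs paired by number. Tissue and library kit cannot be told apart.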

How the results depend on the processing

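Of 218 alternative values for the counts of called members 162 stayed within 1.5 times the main count and 56 moved, and of 166 for log2 fold changes of named members 138 kept their call and 28 lost it with the same direction. None turned direction. Without the fold threshold the counts became 5 in *Casp8* 1xDA *Cflar*-/- *Mlkl*-/-, 1 with *Casp1* lost as well and 8 with *Ifnar1* also, 4 in *Casp8* C362A *Mlkl*-/-, 7 in C362A with *Casp1* lost and 9 in C362A with *Cflar* lost against controls, 6, 7 and 3 for the added losses of *Casp1*, *Ifnar1* and *Fadd*, 4 and 1 for the last 2 against *Casp8* C362A *Mlkl*-/-, and 3 between controls. DESeq2 gave 1 for the added loss of *Ifnar1*, 3 in C362A with *Cflar* lost, 1 in MEFs and 2 between controls, and edgeR without the filter 1, 2, 2 and 2. limma-voom gave 0 in C362A with *Casp1* lost, 3 in C362A with *Cflar* lost, 0 for the interaction over *Casp1* and 1 for that over tissue. RLE scaling gave 2 in C362A with *Cflar* lost and 0 between controls, and the 2 groups alone 0 in C362A with *Cflar* lost. Leaving out 1 library at a time gave 0 to 1 in *Casp8* 1xDA *Cflar*-/- *Mlkl*-/- and in the 1xDA groups without *Ifnar1* or *Fadd* against controls, 0 to 1 for the added loss of *Casp1* in either set and for C362A with *Cflar* lost against *Casp8* C362A *Mlkl*-/-, 0 to 2 for the added loss of *Ifnar1*, in C362A with *Cflar* lost and between controls, 0 to 3 in C362A with *Casp1* lost, 23 to 26 between tissues and 0 throughout elsewhere. Intestines with the same number deviated together at r = -0.278 to 0.221 in the 1xDA set and -0.438 to 0.291 in the C362A set, so the numbers were not read as pairs. The paper's captions call the *Mlkl*-/- controls of some comparisons littermates, and the labels do not say which libraries share a litter. With a replicate block the count in C362A with *Casp1* lost was 0, *Hoxd12* gave way to another member in C362A with *Cflar* lost, and no other count moved past 1.5 times. With *Casp8* 1xDA *Cflar*-/- *Mlkl*-/- *Casp1*-/- reduced to its replicate 3, chosen after seeing the data, the counts were 0 in all 5 fits that use it, the interaction over *Casp1* included, with 1 library in that group and the spread taken from the others. *Hoxb13* with the 1xDA controls alone, *Hoxc11* with the C362A controls alone and *Hoxd11* with either alone could not be fitted after the filter. The cause was not tested for any of these.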
